A study of Homo sapiens with 6 samples.

Results

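The ALG enzymes are the glycosyltransferases that build the lipid-linked oligosaccharide, the sugar tree that is later moved as a whole onto asparagine residues of new proteins. The 10 members were *ALG1*, *ALG2*, *ALG3*, *ALG5*, *ALG6*, *ALG8*, *ALG9*, *ALG11*, *ALG12* and *ALG14*, each found by its gene symbol in the platform annotation and each represented by 1 probe set, among 18405 genes tested. They were measured in MUG-Chor1, a line grown from a chordoma of the sacrum and coccyx, a tumor that resembles the notochord. Pools of 20 large physaliferous cells (pools 2, 3 and 4), that is cells filled with large vacuoles, were compared with pools of 20 small non-vacuolated cells (pools 5, 6 and 7) of the same line, untreated, and for each pool the amplified cDNA was read on its own array (Affymetrix Human Gene 1.0 ST). Both phenotypes were picked under the microscope from 1 cell line. The methods of the study describe pools in quadruplicate for each phenotype, while the series holds arrays of 3 pools each. Separate cultures are not stated for the pools, so a p-value reflects only how these pools spread, which may be technical. The methods give 1 fixed amount of amplified cDNA for labeling, so a signal is relative to the other transcripts of its pool. A lower signal can therefore not tell fewer copies per cell from fewer expressing cells within a pool, or from more of the other transcripts. *ALG11* entered the list as a gene that the study itself had picked on these same arrays, so its difference is a description and not independent evidence.

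N-glycosylation starts on the endoplasmic reticulum, where the lipid dolichol, linked through pyrophosphate, carries the growing sugar tree. On the cytosolic face N-acetylglucosamine and the first mannoses are added from nucleotide sugars, by *ALG14* with its partner *ALG13* and then by *ALG1*, *ALG2* and *ALG11*. The tree is then turned into the lumen, where *ALG3*, *ALG9* and *ALG12* add the remaining mannoses and *ALG6*, *ALG8* and *ALG10* add the glucoses that mark it as complete. *ALG5* makes dolichol phosphate glucose, the donor for these glucoses, and the oligosaccharyltransferase moves the finished tree to protein. Inherited defects in many of these genes cause congenital disorders of glycosylation.

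Facts that concern all arrays come first. The values are log2 expression after robust multi-array averaging, and a signal above 6.644, that is log2(100), was taken as above the expression floor. Array medians lay between 6.64 and 6.68 in large and between 6.73 and 6.76 in small pools, and over all genes the log2 fold change (large minus small) had a median of -0.11. Of all genes 33.6% had a higher mean in large cells, and 45.6% after each array was centred on its median. The 6 chordoma markers (*TBXT*, *KRT8*, *KRT18*, *KRT19*, *SOX9*, *CD24*) were above the floor in all pools, with a mean log2 level of 10.33 to 10.42 in large and 10.28 to 10.43 in small pools. The 7 fibroblast markers averaged 6.91 to 7.06 in large and 7.19 to 7.50 in small pools, all 7 with a lower mean in large cells as deposited and 6 after centring, of which *DCN* was below the floor in every pool and 4 were above it in every pool (*THY1*, *COL1A1*, *COL1A2* and *COL3A1*). *PDGFRB* was above it in 5 of 6 pools and *LUM* in 3. Among the 7, *LUM* differed most (log2 fold change -1.11), with 8.88 in small pool 7 and 5.91 to 7.22 in the other pools. Of the 4 endothelial markers 3 were below the floor in every pool, while *KDR* was above it in all 6 (log2 fold change 0.12, overlapping groups). The 4 immune markers averaged 6.39 to 6.92 in large and 6.42 to 6.60 in small pools. *PTPRC* was below the floor throughout. *CD14* was above it in 4 of 6 pools (log2 fold change -0.19), and *CD3E* in 1, large pool 4 (7.20). *CD68*, also a lysosomal protein, was 0.60 higher in large cells (adjusted p = 0.33 from limma). The part of these markers in the results for the ALG enzymes was not tested.

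For 3 ALG genes every large pool lay on 1 side of every small pool, namely *ALG11* and *ALG8*, which were higher in large cells, and *ALG12*, which was lower, where 27.1% of all genes had groups apart in either direction. With 3 of 10 members apart, the share was near that of all genes, so it only decided which stretches are printed. *ALG12* was no longer apart after quantile normalization or centring. The stretches directly before the annotated starts of these 3 genes are shown because they are the members whose groups were apart, and because each gene shares its stretch with a gene that starts on the other strand. They were taken from the RefSeq sequences of GRCh38.p14, are printed from 5′ to 3′ on the strand of the ALG gene up to the base before its start, and stop short of the start of the neighbour on the other strand. Capitals mark matches, on either strand, to 3 elements. The GC box is GGGCGG, the CCAAT box is named for its letters, and the endoplasmic reticulum stress element (ERSE) is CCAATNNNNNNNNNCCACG, so that each ERSE also holds a CCAAT box.
*ALG11*, chr13:52012148-52012397, plus strand: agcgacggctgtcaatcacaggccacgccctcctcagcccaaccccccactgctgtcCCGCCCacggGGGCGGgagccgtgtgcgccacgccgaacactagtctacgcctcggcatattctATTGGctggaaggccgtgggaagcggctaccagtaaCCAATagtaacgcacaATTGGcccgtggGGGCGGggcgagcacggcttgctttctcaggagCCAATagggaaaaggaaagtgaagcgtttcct
*ALG8*, chr11:78139627-78139792, minus strand: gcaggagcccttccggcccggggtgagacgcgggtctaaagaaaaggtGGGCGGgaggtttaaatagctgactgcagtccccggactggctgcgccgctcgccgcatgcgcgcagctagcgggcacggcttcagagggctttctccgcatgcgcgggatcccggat
*ALG12*, chr22:49918439-49918633, minus strand: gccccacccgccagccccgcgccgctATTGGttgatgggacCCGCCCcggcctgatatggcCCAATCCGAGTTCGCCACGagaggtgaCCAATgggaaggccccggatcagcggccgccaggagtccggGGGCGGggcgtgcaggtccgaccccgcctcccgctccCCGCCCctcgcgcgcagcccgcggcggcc
The 250 bases before *ALG11* held 4 CCAAT boxes and 3 GC boxes, the 166 bases before *ALG8* held 1 GC box, and the 195 bases before *ALG12* held 3 CCAAT boxes, 3 GC boxes and 1 ERSE. Over the 250 bases before the start in 35116 windows of all genes, a CCAAT box occurred in 32.0%, a GC box in 42.6% and an ERSE in 0.074%. At least 1 window of 6 of the 10 members held a CCAAT box and of 8 members a GC box, while an ERSE was found for *ALG12* alone. The 10 members had 16 windows, so some were counted over more than 1. These counts of genes are therefore not on the same measure as the shares of windows. A CLEAR element, which is bound by the lysosomal regulator TFEB, was found before *ALG1* alone and occurred in 0.308% of all windows. ERSE-II (0.0513% of all windows), the unfolded protein response element core TGACGTGG (0.612%) and the cyclic AMP response element TGACGTCA (1.65%) were found before none of the 10 members. These are matches of letters and not measured binding sites.

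*ALG11* adds the fourth and the fifth mannose on the cytosolic face, the last step before the tree is turned into the lumen. Its log2 expression was 8.73, 8.98 and 8.66 in large pools, against 6.41, 6.63 and 6.75 in small pools. The groups were separated by a gap of 1.91 between the lowest large and the highest small pool, and the spread within either group was small (8.79 ± 0.17 in large and 6.59 ± 0.17 in small cells, SD, n = 3 pools each). The log2 fold change was 2.19 (standard error 0.14, 95% confidence interval 1.85 to 2.53). *ALG11* ranked 1 of 18405 genes by p, but its adjusted p from limma was 0.065. All large pools and 1 of 3 small pools were above the floor, and the mean of the small pools lay below it, so no linear fold is given and the log2 difference and its interval describe the signals as measured. The probe set also carries the symbol *UTP14C*, a gene of ribosome biogenesis whose span lies inside that of *ALG11* and shares its end in RefSeq, and no other probe set carries either symbol. Signal of *ALG11* and of *UTP14C* can therefore not be told apart here.

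The other enzymes of the cytosolic face showed no comparable difference. *ALG14*, the membrane anchor of the second N-acetylglucosamine transfer, had 7.41, 6.99 and 6.89 in large pools, against 6.85, 6.97 and 8.42 in small pools. Small pool 7 alone was high, and without it the log2 fold change of -0.32 (standard error 0.43) became 0.18. *ALG1*, which adds the first mannose, had 6.81, 7.03 and 7.37 in large pools, against 7.30, 6.92 and 7.19 in small pools. Its log2 fold change was -0.063 (95% confidence interval -0.50 to 0.37), and this sign turned with the scaling and without large pool 2 or small pool 5. Its gene overlaps *EEF2KMT*, and RefSeq lists 14 further genes named as copies of *ALG1*, 13 of them pseudogenes, so its signal is uncertain. *ALG2*, which adds the second and the third mannose, had the smallest spread within groups, with 7.86, 7.68 and 7.70 in large pools, against 7.80, 7.75 and 7.83 in small pools. The interval of its log2 fold change (-0.048) ran from -0.28 to 0.19, and its sign turned after centring each array. The adjusted p from limma of *ALG14*, *ALG1* and *ALG2* were 0.70, 0.87 and 0.81.

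The mannosyltransferases of the lumen had log2 fold changes of -0.029 to -0.21 as deposited, none of them passing the test, and that of *ALG9* turned to 0.055 after centring each array. *ALG3*, which adds the first lumenal mannose, had 7.75, 7.75 and 7.73 in large pools, against 7.66, 7.81 and 8.08 in small pools. The large pools lay inside the range of the small pools, and without small pool 7 the log2 fold change of -0.11 became 0.012. *ALG9*, which adds the seventh and the ninth mannose, had 8.26, 6.70 and 7.57 in large pools, against 7.74, 7.15 and 7.72 in small pools. Its values overlapped fully, and its log2 fold change of -0.029 (95% confidence interval -1.01 to 0.96) became 0.38 without large pool 3, 0.073 without small pool 5 and 0.063 without small pool 7. *ALG12*, which adds the eighth mannose, had 7.01, 7.12 and 6.97 in large pools, against 7.16, 7.38 and 7.19 in small pools. Every large pool was below every small pool, but only by 0.048 at the closest, and the log2 fold change was -0.21 (95% confidence interval -0.47 to 0.044, adjusted p = 0.36 from limma). The separation of *ALG12* was lost when the arrays were quantile-normalized again or centred (log2 fold change -0.13 once centred), while those of *ALG11* and *ALG8* were kept.

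Among the genes of the glucose steps, *ALG8* stood apart. *ALG8*, which adds the second glucose, had 9.97, 10.15 and 10.37 in large pools, against 9.50, 9.41 and 9.66 in small pools. All pools were above the floor and the groups were 0.31 apart at the closest, with 10.16 ± 0.20 in large and 9.53 ± 0.12 in small cells (SD, n = 3 pools each). The log2 fold change was 0.64 (standard error 0.14, 95% confidence interval 0.30 to 0.97), a 1.56-fold difference, with a rank of 140 among all genes and an adjusted p of 0.32 from limma. *ALG6*, which adds the first glucose, had 6.44, 7.45 and 5.92 in large pools, against 5.58, 8.24 and 7.33 in small pools. It had the widest spread within groups and was above the floor in 1 of 3 large and 2 of 3 small pools, and its log2 fold change of -0.45 (95% confidence interval -2.23 to 1.33) became 0.15 without small pool 6. *ALG5*, the donor enzyme, had 9.62, 10.41 and 10.25 in large pools, against 10.33, 9.28 and 9.92 in small pools. The groups overlapped, and the log2 fold change of 0.25 (95% confidence interval -0.54 to 1.04) became -0.031 without small pool 6. The adjusted p from limma was 0.75 for *ALG6* and 0.68 for *ALG5*.

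**Figure D1:**
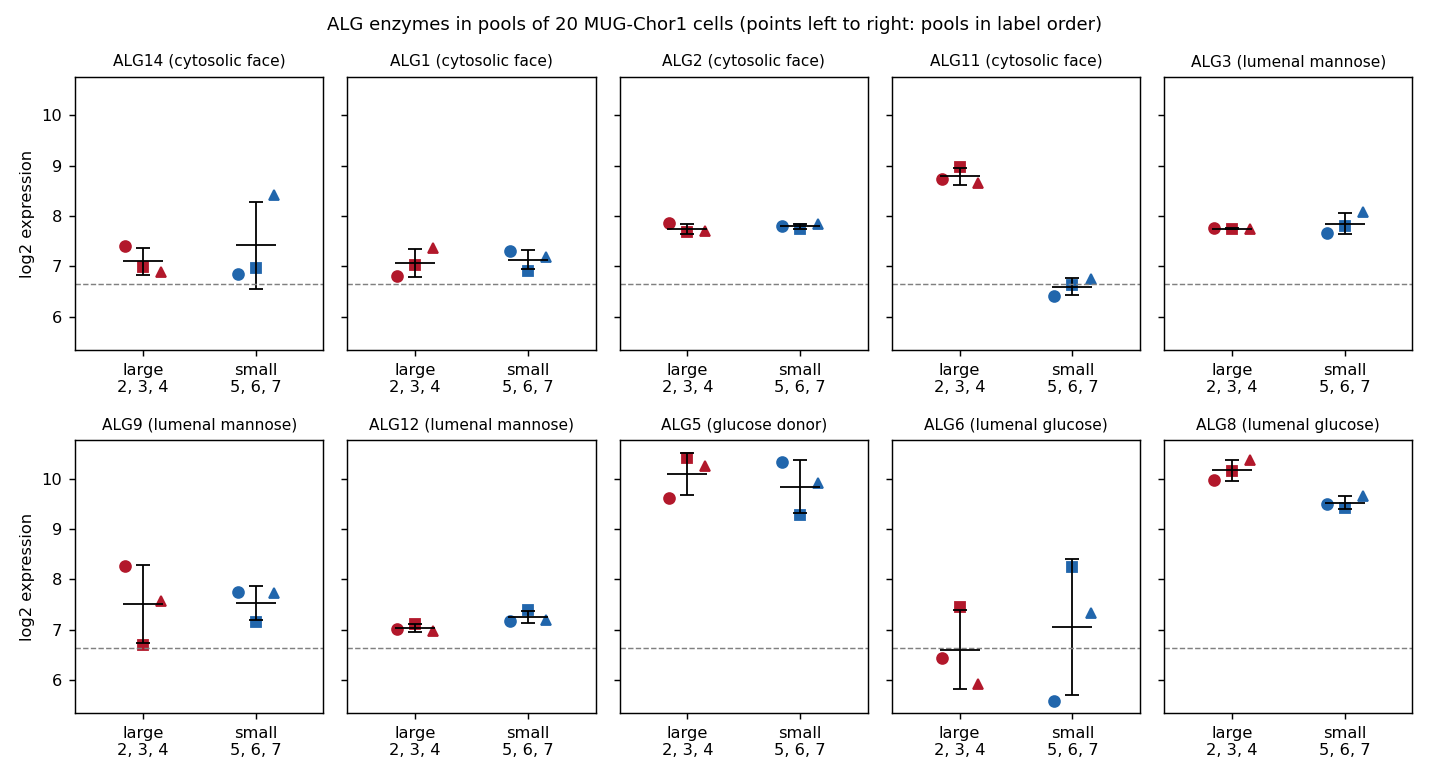
Log2 expression (vertical axis) of the 10 ALG enzymes in each pool of 20 large physaliferous (red, left) or 20 small non-vacuolated (blue, right) MUG-Chor1 cells. Symbols are pools, black lines show the mean and SD over 3 pools, and a dashed line marks the floor; the groups are apart for *ALG11*, *ALG8* and, by 0.048, *ALG12*, and single pools spread widely for *ALG6*, *ALG9* and *ALG14*.

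Counted together, 0 of the 10 ALG enzymes passed an adjusted p under 0.05 from limma with an absolute log2 fold change above 1, and so did 0 of 18405 genes (0%), the smallest adjusted p being that of *ALG11*. An unadjusted p under 0.05 was found for 2 members (*ALG11* and *ALG8*), both with higher values in large cells, and for 14.8% of all genes, of which the higher made 4.34% and the lower 10.5% of all genes. The groups did not overlap for 2 members in the upward direction, where 5.48% of all genes did so, and for 1 member in the downward direction, where 21.6% did so. The 2 members in the upward direction were again *ALG11* and *ALG8*. *ALG11* had been picked by the study on these same arrays, so neither count is evidence about the members as a set. Without *ALG11*, *ALG8* alone remains in both counts. With 3 pools against 3 a two-sided exact permutation test cannot give a p under 0.1. The split of all genes at an unadjusted p under 0.05 depended on the scaling, with 798 higher and 1934 lower in the values as given, 835 higher and 1086 lower once quantile-normalized again, and 1208 higher and 718 lower once centred. It moved with the filter as well. Among the 11695 genes left by a filter on the expression floor, 662 were higher and 1096 lower. With an interquartile range above 0.5 also required, 2063 genes were left, 232 of them higher and 34 lower.
A higher mean in large cells was found for 3 of the 10 members (*ALG11*, *ALG8* and *ALG5*) and a lower mean for 7, without a test. After centring each array 6 members had a higher mean. The median log2 fold change was -0.055 over the members, -0.11 over all genes and -0.063 over the members other than *ALG11*, whose log2 fold changes ran from -0.45 to 0.64. The median of the members had no stable sign. It was 0.029 after centring, where that of all genes was -0.026, and 0.037 without small pool 7, -0.107 without large pool 2, -0.028 without large pool 3, -0.014 without small pool 5 and -0.098 without small pool 6. Of the 10 members 8 were above the floor in all pools, *ALG11* in 4 and *ALG6* in 3 of 6 pools. The pooled SD within groups ran from 0.076 for *ALG2* to 1.10 for *ALG6*, with a median of 0.21 over the members and of 0.18 over all genes.

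**Figure D2:**
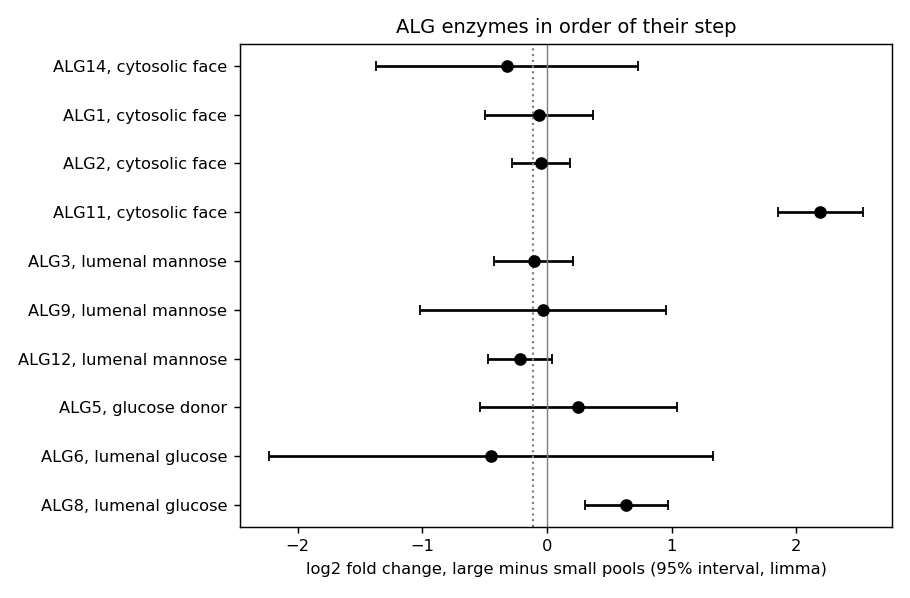
Horizontal axis, large minus small on the log2 scale for the ALG enzymes in the order of their steps, with 95% confidence intervals from limma (3 pools against 3); the solid line is 0 and the dotted line the median of all genes (-0.11). The intervals of *ALG11* and *ALG8* lie to the right of 0, and the other 8 cross it.

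Since the probe set of *ALG11* also covers *UTP14C*, its neighbours on chromosome 13 were examined. *ATP7B*, a copper transporter, starts 266 bases from *ALG11* on the other strand, so that both genes share the stretch printed above. It had 5.84, 5.87 and 5.88 in large pools, against 6.24, 6.17 and 6.07 in small pools. *ATP7B* was below the floor in all 6 pools, so no fold is given and only its signals as measured are described. Its signal was lower in every large pool, as for 21.6% of all genes, with an unadjusted p of 0.018 (0.054 after centring) and an adjusted p of 0.32 from limma. On the other side *NEK5* and *NEK3*, which code for kinases, were also below the floor in all pools, and *THSD1* (log2 fold change -0.11), *VPS36* of the endosomal sorting machinery (0.33) and *CKAP2*, a spindle protein (-0.21), had overlapping groups. The value of *VPS36* was 0.12 without small pool 7 and 0.57 without small pool 5, and that of *THSD1* was -0.028 after centring and -0.072 without large pool 2. The sign of *CKAP2* rested on single pools and was 0.22 without large pool 2, 0.081 without large pool 3 and 0.096 without small pool 6. The pseudogene *MRPS31P5* had higher signals in every large pool, as for 5.48% of all genes (7.12, 6.59 and 6.98, against 6.41, 6.54 and 6.45 in small pools), with 2 of 6 pools above the floor and an adjusted p of 0.33 from limma. *UTP14A*, the X-linked paralog of *UTP14C*, had 7.75, 7.97 and 8.16 in large pools, against 8.52, 8.43 and 8.06 in small pools. Its log2 fold change was -0.38 (95% confidence interval -0.79 to 0.04) and its groups overlapped. None of these genes had a difference of the size of *ALG11*.

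**Figure D3:**
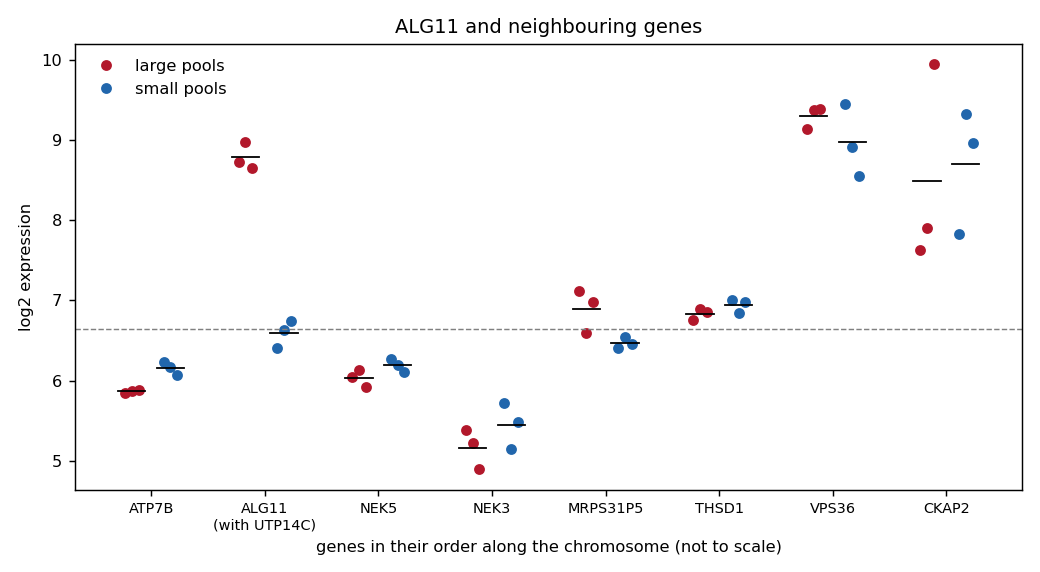
Log2 expression (vertical axis) of *ALG11* and its neighbours in chromosomal order in large (red, left) and small (blue, right) pools; points are pools, lines are means and the floor is dashed. *ALG11* shows a gap of 1.91 between the groups, while *ATP7B*, *NEK5* and *NEK3* sit below the floor in all pools.

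The genes that start within 1000 bases of an ALG gene on the other strand were added after values had been seen. *KCTD21-AS1*, a non-coding RNA gene that starts 167 bases from *ALG8*, had 5.87, 5.79 and 5.96 in large pools, against 6.17, 6.78 and 6.17 in small pools. Its signal was lower in every large pool, as for 21.6% of all genes, with 1 of 6 pools above the floor (unadjusted p = 0.0375, 0.063 after centring, and adjusted p = 0.33 from limma). The means of *KCTD21-AS1* in large (5.87) and small pools (6.37) lay below the floor, so its log2 difference describes the signals as measured. This difference was -0.50, and -0.29 without small pool 6, the pool above the floor. *CRELD2*, an endoplasmic reticulum protein induced by unfolded proteins that starts 196 bases from *ALG12*, had 6.88, 6.65 and 7.20 in large pools, against 7.33, 7.14 and 7.20 in small pools. Its log2 fold change of -0.31 (95% confidence interval -0.70 to 0.07) became -0.18 without large pool 3, and its groups overlapped. *SEC61B*, a subunit of the protein translocation channel that starts 340 bases from *ALG2*, had a log2 fold change of -0.19 (95% confidence interval -0.55 to 0.17). This was -0.31 without small pool 5, -0.11 without large pool 2, -0.10 without small pool 7 and -0.11 after centring. By limma none of the 4 neighbours measured in this way passed over all genes.

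The remaining stages of N-glycosylation were described from lists chosen with earlier results of these data known. Of 8 genes of other steps of the lipid-linked oligosaccharide 3 had a probe set with 1 symbol, *DPAGT1*, which starts the tree (log2 fold change 0.16), *MPDU1*, which is needed for the use of the dolichol-linked donors (0.077), and *ALG13*, the catalytic partner of *ALG14* (0.042). All 3 had overlapping groups. *MPDU1* was above the floor in 3 of 6 pools, with its mean in small pools (6.61) below it, and *DPAGT1* in 4 of 6. Their log2 differences therefore describe the signals as measured. The sign turned for *DPAGT1* without large pool 3 (-0.11), for *MPDU1* without large pool 2 (-0.17) and for *ALG13* without large pool 4 (-0.024), without small pool 6 (-0.039) and with the mean of its 2 probe sets (-0.21). *ALG10*, which adds the last glucose, and *ALG10B* share both of their probe sets and so have none of their own. In the fit over all probe sets these had log2 fold changes of -0.063 and 0.045 (adjusted p = 0.82 and 0.97 from limma).
Of 17 measured genes of dolichol and sugar donors 0 had higher and 3 had lower values in large cells with an unadjusted p under 0.05, beside 4.34% higher and 10.5% lower of all genes, and 0 passed when adjusted over all genes. After centring each array the counts were 1 higher and 2 lower, and without small pool 7 the lower count was 1. The 3 were *GMPPA*, which regulates the synthesis of GDP-mannose, with 7.56, 7.55 and 7.98 in large pools, against 8.22, 8.18 and 8.31 in small pools (log2 fold change -0.54), and *DPM3* (-0.39) and *DPM2* (-0.47), the non-catalytic subunits of dolichol phosphate mannose synthase. *DPM1*, its catalytic subunit, chosen after its values were seen, had a log2 fold change of 0.29 with overlapping groups (adjusted p = 0.60 from limma). Dolichol phosphate mannose is the donor of *ALG3*, *ALG9* and *ALG12*.
Of 11 measured subunits of the oligosaccharyltransferase, which takes up the finished tree, all had a higher mean in large cells, with a median log2 fold change of 0.27. This held as deposited, where 33.6% of all genes had a higher mean, after quantile normalization (37.7%) and after centring (45.6%). All 11 passed the expression floor, and of all genes that passed it 38.1% had a higher mean. With the interquartile range filter as well, 2 of the 11 were left, both higher, where 68.4% of all genes left were higher. Without large pool 3 the number was 10, and without small pool 6 it was 9 and the median 0.14. An unadjusted p under 0.05 with higher values was found for 2 of them, beside 4.34% of all genes, for 4 without small pool 7 and for 1 without large pool 4. The 2 were *OSTC*, with 10.66, 11.11 and 10.58 in large pools, against 9.32, 9.18 and 9.17 in small pools (log2 fold change 1.56, adjusted p = 0.22 from limma), and *RPN2* (0.33), followed by *KRTCAP2* (0.30). Of 22 measured genes of trimming and folding, 2 with higher and 2 with lower values in large cells had an unadjusted p under 0.05, a share near the 14.8% of all genes. The lower count was 1 after quantile normalization and after centring, and also without large pool 3, large pool 4, small pool 6 or small pool 7. It was also 1 among the 19 genes that passed the expression floor. Of the 2 lower genes, *MAN1C1*, named after its values were seen, was above the floor in 1 of 6 pools. Its means in large (6.26) and small pools (6.56) lay below the floor. The higher count was 3 after quantile normalization, after centring, with array weights and without large pool 3 or small pool 7. The smallest p belonged to *UGGT1*, the sensor that returns misfolded glycoproteins to folding (0.43), *GANAB*, the catalytic subunit of glucosidase II that trims the glucoses set by *ALG8* and *ALG6* (-0.80), and *MAN2A1*, a Golgi mannosidase (0.66). The groups did not overlap for 6 of the 22 genes, 3 higher and 3 lower, beside 27.1% of all genes, and 0 of the 22 passed when adjusted over all genes.

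**Figure D4:**
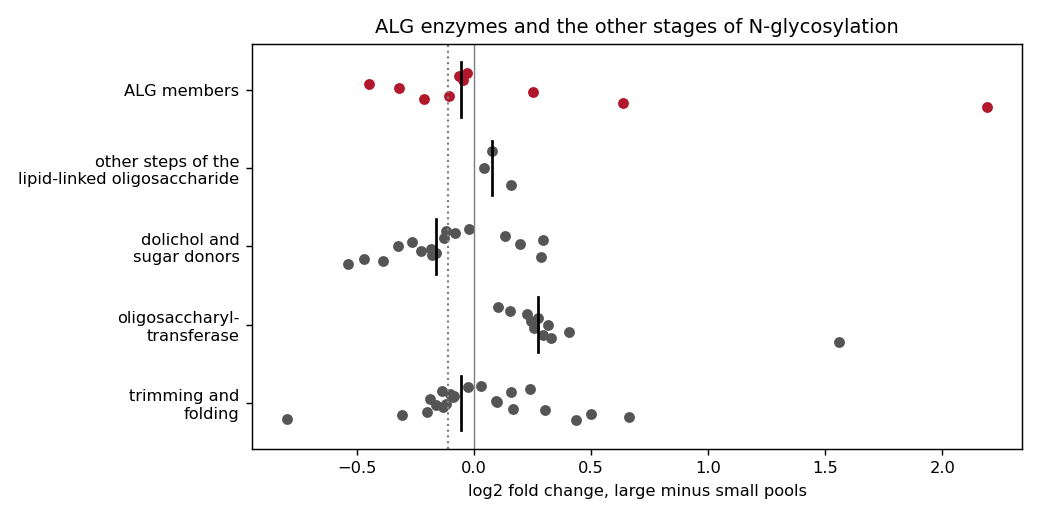
Horizontal axis, large minus small on the log2 scale for each measured gene of the ALG members (red) and of 4 further stages of N-glycosylation (grey); short black lines are list medians, the solid line is 0 and the dotted line the median of all genes (-0.11). *ALG11* is the point farthest to the right (2.19), followed by *OSTC* (1.56).

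The genes whose course over the 6 pools was most like that of *ALG11* were *STARD3NL*, *OSTC*, *SAMD12*, *UCHL3* and *FAM200B*. Likeness was the root mean square difference in log2 expression over the 6 pools after each gene was centred on its own mean, which was 0.30 for *STARD3NL*, 0.36 for *OSTC* and *SAMD12*, 0.37 for *UCHL3* and 0.38 for *FAM200B*. *STARD3NL*, an endosomal protein at contacts with the endoplasmic reticulum, had 8.42, 8.65 and 7.93 in large pools, against 6.17, 6.84 and 6.15 in small pools. *UCHL3*, a ubiquitin hydrolase, and *SAMD12* were above the floor in 0 of 3 small pools, and *OSTC* was above it in all 6 pools. All 5 had higher means in large cells, so the measure contains the difference between the phenotypes itself, and *UCHL3* was, like *ALG11*, picked by the study on these arrays.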

How the data were processed

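For each of the 6 arrays 1 column of log2 expression per probe set was deposited, which the authors had made by robust multi-array averaging. The affy package is named in the methods and Affymetrix Expression Console in the submitters' processing notes, without a chip definition file. There were 0 unused columns. Replicates were not pooled.
Groups followed the labels. Of the 32321 probe sets, 19158 had 1 gene symbol, 1388 several and 11775 none in the platform annotation. For each gene the single-symbol probe set with the highest mean over all arrays was kept, and *ALG11* was the probe set so named in the study, which gave 18405 genes. No filter was applied, so that every member was tested; the study filtered by limits that its methods do not state. Large minus small was fitted with limma 3.58.1 in R 4.3.3 without covariates, with Benjamini-Hochberg adjustment over all genes, and the script was tested on simulated data. A call needed a log2 fold change above 1 in size and an adjusted p under 0.05. Members and lists were chosen with earlier results of these data known. Named genes are the members, neighbours of *ALG11*, the 3 genes with the smallest p per related list and the 5 genes most like *ALG11*; names outside this rule are markers or are stated as added. Alternatives covered scaling, filters, probe sets, the variance model, array weights and each pool left out. Precision is limited by the number of pools. The RT-qPCR, array-CGH and time lapse data were not analysed here.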

Additional observations from a re-analysis of the deposited data

How the results depend on the processing

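Under 15 alternatives the log2 fold change of *ALG11* stayed between 2.10 and 2.28, with adjusted p from limma of 0.054 to 0.33, the highest without large pool 2. That of *ALG8* stayed between 0.53 and 0.73 (adjusted p 0.30 to 0.49). No member passed the thresholds under any of them. With genes filtered on the expression floor and on an interquartile range above 0.5, 2063 genes were left, 4 of them members, and 2 genes passed, *SNORD59B* and *ZNF814*, named after their values were seen; 1 member then had an unadjusted p under 0.05. The number of members with a higher mean was 6 after centring each array and 3 to 6 when single pools were left out, 5 without small pool 5 and 6 without small pool 7. With a floor of log2(200) 4 members were above it in all pools. The sign of *ALG1* turned after quantile normalization (0.0084), after centring (0.021) and without large pool 2 (0.065) or small pool 5 (0.017), that of *ALG2* after centring (0.036) and that of *ALG9* after centring (0.055) and with array weights (0.12). Left-out pools took *ALG3* from -0.20 to 0.012, *ALG5* from -0.031 to 0.49, *ALG6* from -1.18 to 0.15, *ALG9* from -0.40 to 0.38, *ALG14* from -0.60 to 0.18, *DPAGT1* from -0.11 to 0.47, *ALG13* from -0.039 to 0.087, *MPDU1* from -0.17 to 0.33 and *CKAP2* from -0.94 to 0.22. With the mean of its probe sets *ALG13* had -0.21. The groups of *ALG2* were apart without large pool 2 and those of *ALG3* without small pool 5. The cause of these turns was not tested. No paired analysis was possible because the pools of the groups share no replicate number.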
